A study of Sus scrofa with 8 samples.

Results

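Respiratory complex I was followed in the skeletal muscle of pigs fed a diet of high or of low energy, through 37 nuclear genes of the NDUFA, NDUFB, NDUFC, NDUFS and NDUFV families and the carrier protein NDUFAB1. They were chosen by name, not by their values, though with earlier results of these data known: a spot counted for a gene when that gene was the only symbol in the platform annotation. Of the 37 genes, 31 had a spot, on 86 of the 9984 spots of the array, and 29 had enough values for a test, among 5025 features tested in all. NDUFA1, NDUFA4, NDUFB5, NDUFC1, NDUFC2 and NDUFS3 had no spot under these symbols. NDUFA4, now assigned to complex IV, is on the array under its current symbol COXFA4, which the choice by name did not count; its log2 ratio of high over low energy was -0.14 ± 0.099 (limma SE, n = 4). NDUFA5 and NDUFB8 had spots but were measured on too few arrays for the test.

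The study used 8 arrays with 2 colours, each carrying the labelled cDNA of 1 high energy and 1 low energy muscle sample. They make up 4 couples of samples, and every couple was hybridised in both dye orientations: couple 1 (low energy sample 49, high energy sample 40), couple 2 (61 and 41), couple 3 (142 and 40) and couple 4 (samples called be and ae, letters the labels do not expand). Since both arrays of a couple carry 1 pair of RNAs, their values were averaged and n is 4 couples; high energy sample 40 serves in couples 1 and 3. Both groups are labelled as pig muscle RNA and differ by diet; the sources used here do not give breed, sex, age, the muscle taken, the length of feeding or whether a sample is 1 animal or a pool. P-values therefore rest on couple-to-couple spread, an unknown part of which may be technical. In a fit of all 8 arrays, the correlation within a couple was estimated over the features at 0.0039. By that estimate, the swapped arrays of a couple were hardly more alike than arrays of different couples.

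Complex I, the NADH:ubiquinone oxidoreductase of the inner mitochondrial membrane, takes electrons from NADH, passes them along iron-sulfur clusters to ubiquinone and pumps protons as it does so. It has an arm in the matrix, where the redox centres sit, and an arm in the membrane, where the pumps sit; a set of core subunits does the chemistry, and many accessory subunits surround it. The pump subunits are encoded by mitochondrial DNA and all other subunits by the nucleus, and in skeletal muscle the complex is abundant in fibres rich in mitochondria. Of the mitochondrially encoded subunits, 0 of 7 had a spot under their symbol, so the values concern nuclear transcripts alone.

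Each value is a log2 ratio of the channels of an array, on arrays centred on their median. A positive value is read below as higher with high energy, which the labels make likely but do not state. The means described array by array, and the counts over groups of genes, are therefore accompanied by turned values. A turned value is the mean with the sign reversed on the arrays that carry high energy cDNA in dye 3, and under the reading used it measures the dye effect. Errors are limma standard errors over the couples, and adjusted p-values come from limma with Benjamini-Hochberg adjustment over the 5025 features. The RNA is that of whole tissue, so fewer mitochondria-rich fibres and less RNA per fibre cannot be told apart.

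No complex I subunit passed the test between the diets. The 29 ratios lay between -0.31 (NDUFAB1) and 0.21 (NDUFB9), with a median of -0.026, and 22 of the 29 were smaller in size than their own standard error. By limma with Benjamini-Hochberg adjustment, 0 of 29 members were called at 0.05, beside 0 of 5025 features (0%), and the smallest adjusted p was 0.996 among the members and over all features. At an unadjusted limma p under 0.05, 0 of 29 members were called, beside 190 of 5025 features (3.78%). Of the 2556 features that are genes with a symbol, 61 were. With 4 couples an exact sign-flip test of 1 gene cannot go below p = 0.125.

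The direction was split as well. Of the 29 subunits, 11 (37.9%) lay above 0 and 18 below, beside 46.4% of all features above 0. Of their turned values 13 of 29 (44.8%) lay above 0, with a median of -0.0063. The median size of a ratio was 0.064 for the subunits, 0.090 for all features and 0.078 for the 2556 features that are genes with a symbol. The other features are single spots, whereas each subunit had at least 2 spots. The median standard error was 0.105 for the subunits, 0.118 for the genes and 0.126 for all features. The shares of intervals that follow are therefore not a like comparison. The 95% interval of a subunit had a median half-width of 0.27 log2 units. All 29 intervals (100%) lay within 1 log2 unit of 0, beside 95.1% of all features, and 26 of 29 (89.7%) lay within 0.5 log2 units, beside 61.4%. The outermost bounds were -0.65, for NDUFAB1, and 0.45, for NDUFV3.

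The couples gave no common direction. The median over the subunits was 0.027 in couple 1, -0.0071 in couple 2, -0.0072 in couple 3 and -0.053 in couple 4, and 16 subunits lay above 0 in couple 1, 13 each in couples 2 and 3 and 10 in couple 4. Of the 28 subunits measured in all 4 couples, 5 (17.9%) had 1 sign in every couple, close to the 16.6% of 3640 features measured as fully. These were NDUFB9 above 0 and NDUFA12, NDUFA13, NDUFB10 and NDUFAB1 below. One subunit of 28, NDUFB9 (3.57%), was above 0 on all 8 arrays, beside 0.797% of features; 0 of 28 were below 0 on all 8, beside 1.46%. Without couple 4, the median of the subunits was 0.0012 and 55.2% lay above 0. On the arrays with high energy in dye 3 alone, the median was 0.016 and 62.1% lay above 0, against -0.028 and 44.8% with high energy in dye 5 alone.

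**Figure D1:**
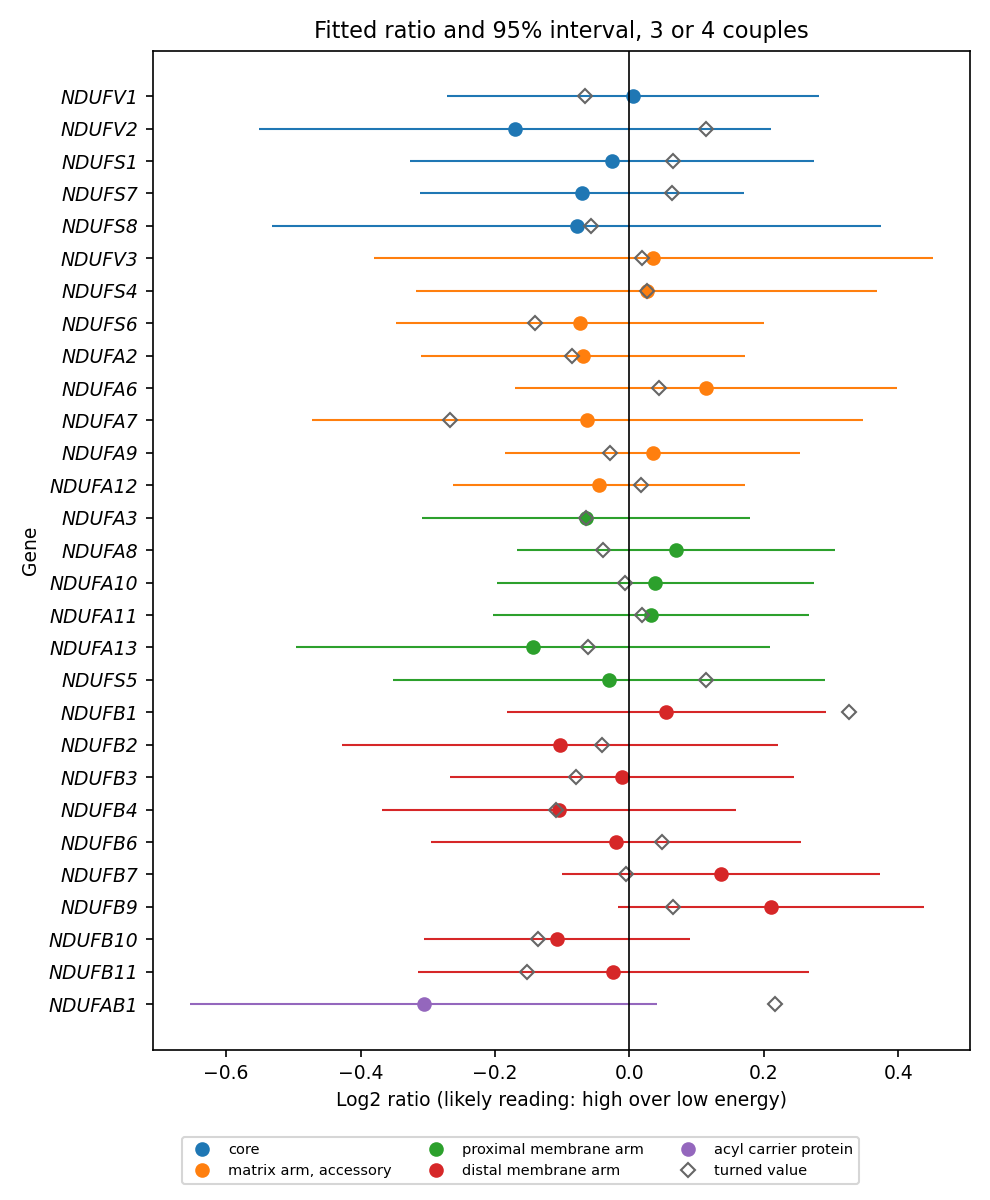
Log2 ratio of high over low energy for the 29 tested complex I subunits, ordered by their place in the complex, with the 95% interval of the limma fit over 4 couples (3 for NDUFB6). Every interval includes 0, and the ratios range from -0.31 for NDUFAB1 to 0.21 for NDUFB9.

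The core subunits of the matrix arm carry the flavin and the iron-sulfur clusters. Of the 5 tested, 1 lay above 0 and 4 below, with a median of -0.071, and none passed the test. Turned, 3 of 5 lay above 0 and the median was 0.064, on the other side of 0. NDUFV1, which binds NADH and the flavin, had a ratio of 0.0061 ± 0.11 (SE, n = 4), and NDUFS1, the large iron-sulfur subunit, -0.026 ± 0.12. NDUFS7 and NDUFS8, iron-sulfur subunits on the path to ubiquinone, gave -0.071 ± 0.097 and -0.079 ± 0.18. NDUFS8 had the widest error of the 29: its couples ranged from -0.31 in couple 2 to 0.44 in couple 3.

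NDUFV2, the iron-sulfur partner of NDUFV1, was the core subunit farthest from 0. Its ratios in couple 1 were -0.062 with high energy in dye 5 and 0.17 with high energy in dye 3; in couple 2 they were -0.41 and 0.19, in couple 3 0.19 and 0.14, and in couple 4 0.14 and -1.35. One array, that of couple 4 with high energy in dye 3, lay far below the other 7, which fell on both sides of 0. The mean was -0.17 ± 0.15 (turned value 0.11; limma adjusted p = 0.996), and 0.017 without couple 4.

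The matrix arm accessory subunits stabilise the redox modules. Of 8 tested, 4 lay above 0 and 4 below, with a median of -0.0095; turned, 4 of 8 lay above 0 (median -0.0057). NDUFV3, which joins the flavoprotein part, had a ratio of 0.036 ± 0.17, and NDUFS4, whose loss in humans and mice gives a mitochondrial brain disease, 0.026 ± 0.14. NDUFS6, a zinc-binding subunit, stood at -0.074 ± 0.11, NDUFA2, a small subunit with a thioredoxin-like fold, at -0.069 ± 0.097, and NDUFA9, a nucleotide-binding subunit near the ubiquinone site, at 0.035 ± 0.088. NDUFA7 had a ratio of -0.062 ± 0.16 and a turned value of -0.27 ± 0.14, so its dye difference was larger than its diet ratio. NDUFA5 had no couple with both dye orientations: its 4 measured arrays gave -0.0056, 0.055 and 0.38 with high energy in dye 3 (couples 1, 2 and 3) and 0.36 with high energy in dye 5 (couple 4).

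NDUFA6, a subunit of the LYR family that anchors the carrier protein to the matrix arm, gave -0.043 and -0.12 in couple 1 (high energy in dye 5, then in dye 3, as in all such pairs that follow), 0.51 and 0.18 in couple 2, 0.20 and 0.067 in couple 3 and -0.086 and 0.089 in couple 4. Couple 2 was the highest, and couples 1 and 4 lay near 0. The mean was 0.11 ± 0.11 (turned value 0.044; limma adjusted p = 0.996) and 0.015 without couple 2.

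NDUFA12, an accessory subunit related in sequence to an assembly factor of the complex, gave 0.051 and -0.051 in couple 1, 0.039 and -0.088 in couple 2, -0.14 and -0.16 in couple 3 and -0.068 and 0.019 in couple 4. Its arrays lay on both sides of 0 in every couple but couple 3, and its place among the subunits with 1 sign in every couple rests on a couple 1 mean of -0.00028. The mean was -0.045 ± 0.087 (turned value 0.017; limma adjusted p = 0.996), and -0.017 without couple 3.

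**Figure D2:**
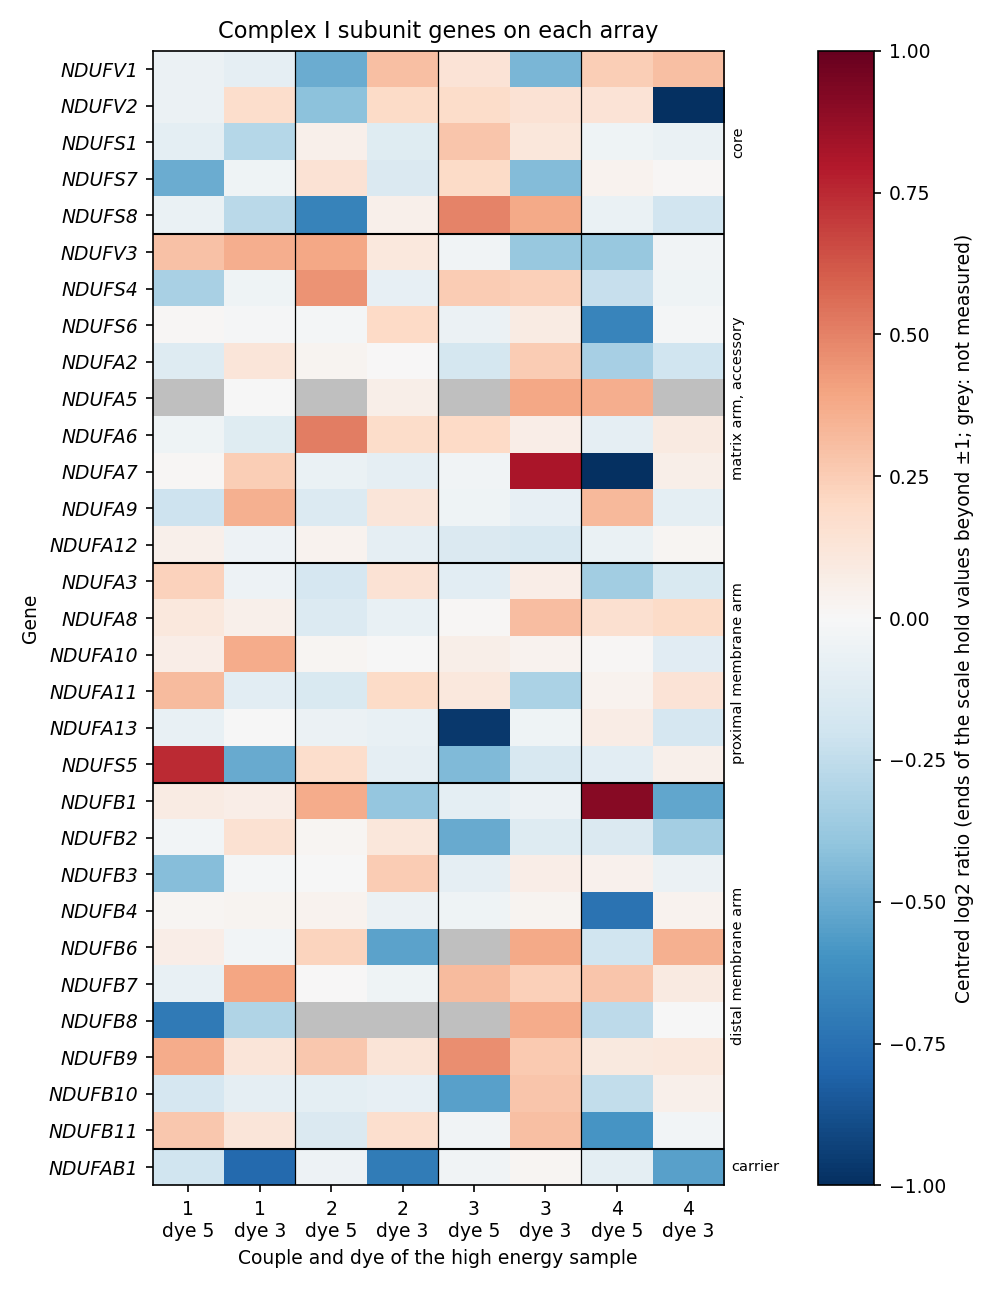
Log2 ratio of every complex I subunit on each of the 8 arrays, arranged by couple and by the dye that carried the high energy cDNA. Of the subunits measured on all 8 arrays, NDUFB9 alone keeps 1 sign, above 0 on 8 of 8; NDUFAB1 and NDUFA13 are below 0 on 7 of 8.

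In the part of the membrane arm next to the matrix arm, 3 of 6 tested subunits lay above 0 and 3 below, with a median of 0.0010; turned, 2 of 6 lay above 0 (median -0.023). NDUFA8 and NDUFS5, cysteine-motif subunits on the intermembrane space side, had ratios of 0.069 ± 0.095 and -0.030 ± 0.13. NDUFA10, related to nucleoside kinases, had a ratio of 0.039 ± 0.095. NDUFA11, a membrane subunit, had 0.032 ± 0.094, and NDUFA3, a small membrane subunit, -0.064 ± 0.097. Each of these ratios was smaller than its error.

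NDUFA13, also known as GRIM-19 and studied for a role in cell death, gave -0.071 and -0.0061 in couple 1, -0.061 and -0.073 in couple 2, -0.96 and -0.042 in couple 3 and 0.071 and -0.17 in couple 4. It was below 0 on 7 of 8 arrays, and 1 array of couple 3 lay far below the rest. The mean was -0.14 ± 0.14 (turned value -0.061; limma adjusted p = 0.996), and -0.052 without couple 3.

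In the far part of the membrane arm, made largely of the NDUFB family, 3 of 9 tested subunits lay above 0 and 6 below, with a median of -0.020; turned, 3 of 9 lay above 0 (median -0.041). NDUFB1 had a ratio of 0.055 ± 0.095, NDUFB2 -0.10 ± 0.13, NDUFB3 -0.010 ± 0.10, NDUFB4 -0.11 ± 0.11, NDUFB6 -0.020 ± 0.10 (n = 3) and NDUFB11 -0.024 ± 0.12. NDUFB8, often used as the protein marker of assembled complex I on blots, was measured in both orientations in couple 1 (mean -0.50) and couple 4 (mean -0.13) alone. The subunits of this region that stood farthest from 0 lay on both sides of it.

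NDUFB9, a LYR family subunit that anchors the carrier protein to the membrane arm, was the highest of the 29. It gave 0.37 and 0.12 in couple 1, 0.27 and 0.13 in couple 2, 0.47 and 0.26 in couple 3 and 0.095 and 0.11 in couple 4. All 8 arrays were above 0, with couple 4 the lowest. The mean was 0.21 ± 0.091, or 1.16-fold, with a 95% interval of -0.017 to 0.44 (turned value 0.065; limma adjusted p = 0.996); leaving out 1 couple at a time gave 0.18 to 0.26.

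NDUFB10, a cysteine-motif subunit needed for assembly of the membrane arm, gave -0.17 and -0.091 in couple 1, -0.097 and -0.084 in couple 2, -0.54 and 0.28 in couple 3 and -0.25 and 0.053 in couple 4. The couple means were alike, between -0.13 and -0.090, but that of couple 3 averages swapped arrays on opposite sides of 0. Those array values average 6 spots, with a single spot at -2.60 on the former array and 1 at 1.30 on the latter. The mean was -0.11 ± 0.079 (turned value -0.14; limma adjusted p = 0.996), and 0.029 on the arrays with high energy in dye 3 alone.

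NDUFB7, a cysteine-motif subunit of the intermembrane space face, gave -0.077 and 0.40 in couple 1, 0.0029 and -0.043 in couple 2, 0.32 and 0.24 in couple 3 and 0.28 and 0.088 in couple 4. It was above 0 on 6 of 8 arrays, and couple 2 lay at 0. The mean was 0.14 ± 0.095 (turned value -0.0046; limma adjusted p = 0.996).

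NDUFAB1, the mitochondrial acyl carrier protein, serves fatty acid synthesis in the matrix and is also a subunit of complex I, held by NDUFA6 and NDUFB9. It was the lowest of the 29, at -0.20 and -0.78 in couple 1, -0.049 and -0.70 in couple 2, -0.032 and 0.019 in couple 3 and -0.094 and -0.54 in couple 4. It was below 0 on 7 of 8 arrays. Couple 3 lay near 0 in both orientations only as a mean of neighbouring spots on opposite sides of 0. There spot 1 gave -0.44 and -0.14, and spot 2 gave 0.38 and 0.18. The mean was -0.31 ± 0.14, or 1.24-fold lower with high energy, with a 95% interval of -0.65 to 0.042 (limma adjusted p = 0.996). The dye orientations differed: the mean was -0.089 with high energy in dye 5 and -0.52 with high energy in dye 3, and the turned value was 0.22. The carrier and its anchors had ratios of -0.31, 0.11 (NDUFA6) and 0.21 (NDUFB9); differences between genes were not tested.

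Several subunits were printed at more than 1 place on the array, which gives repeat readings of the gene. The 86 spots form 43 print locations, each a run of 2 neighbouring spots with the same symbol; 10 of the 31 subunits had several locations and 21 had 1. The sources used here do not say whether the locations of a gene hold the same probe. The median difference in size was 0.23 between neighbouring spots on an array (317 differences), 0.24 between locations of a gene (109 differences) and 0.20 between the dye-swapped arrays of a couple (117 differences). The median size of a subunit's array value, an average over its spots, was 0.13. That of its diet ratio, an average over spots and arrays, was 0.064. Averaging by itself lowers these sizes, so the differences cannot be weighed against them. The mean over couples had the same sign at each location in 3 of the 10 subunits, NDUFA8, NDUFA13 and NDUFB7.

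The locations of NDUFB9 differed in their ratios. The locations and spots described for this and the following genes were chosen after their values were seen. Location 2 was above 0 on all 8 arrays, from 0.15 to 1.05, with a mean over couples of 0.47, whereas location 1 was above 0 on 4 of 8 arrays, with a mean of -0.018. Fitted alone, the spots of location 2 had ratios of 0.47 ± 0.12 and 0.38 ± 0.14 (n = 4), with turned values of 0.0032 and 0.012 and an limma adjusted p of 0.999 each.

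NDUFAB1 had 1 location, and its neighbouring spots differed. Spot 1 was below 0 on 8 of 8 arrays, with a ratio of -0.55 ± 0.14 (n = 4), and spot 2 on 4 of 8, with -0.061 ± 0.17; the limma adjusted p was 0.999 for each. NDUFB10 was below 0 on 8 of 8 arrays at location 2 (mean over couples -0.19), on 5 of 8 at location 1 (-0.16) and on 4 of 8 at location 3 (0.015). In couple 3, location 1 gave -1.18 and 0.93, location 2 -0.43 and -0.092, and location 3 -0.015 and 0.0045. NDUFA6 gave 0.24 at location 1 and -0.028 at location 2, NDUFB7 0.091 and 0.21, and NDUFA13 -0.16 and -0.17. The means of NDUFB9 and NDUFAB1 therefore come mainly from location 2 and spot 1. The signal of a spot was inferred as the larger number of the simplest fraction that gives its ratio. Its median was 2867 at location 2 of NDUFB9 and 312.5 at location 1. For NDUFAB1 it was 295.5 at spot 1, the dimmer, and 445.5 at spot 2. Both NDUFA13 locations were lowest in couple 3, at -0.54 and -0.46. They differed in couple 1 (0.062 and -0.14) and couple 2 (-0.14 and 0.011), and each had 1 couple above 0.

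Taken spot by spot, 78 spots of these genes could be tested. By limma with Benjamini-Hochberg adjustment 0 of 78 were called, beside 0 of 7563 spots (0%), and at an unadjusted p under 0.05 4 of 78 (5.13%) were, beside 3.35% of all spots. Above 0 on all 8 arrays were 3 of 68 fully measured spots (4.41%), beside 0.775%, and below 0 on all 8 were 2 of 68 (2.94%), beside 1.26%. Both spots of NDUFB9 location 2 were among the 4 and among the 3, and the rest of the 3 was a spot of NDUFB7. The rest of the 4 were spot 1 of NDUFAB1 and a spot of NDUFB10 location 2, also the 2 below 0 on all 8. Neighbouring spots of a gene are not independent readings of it.

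**Figure D3:**
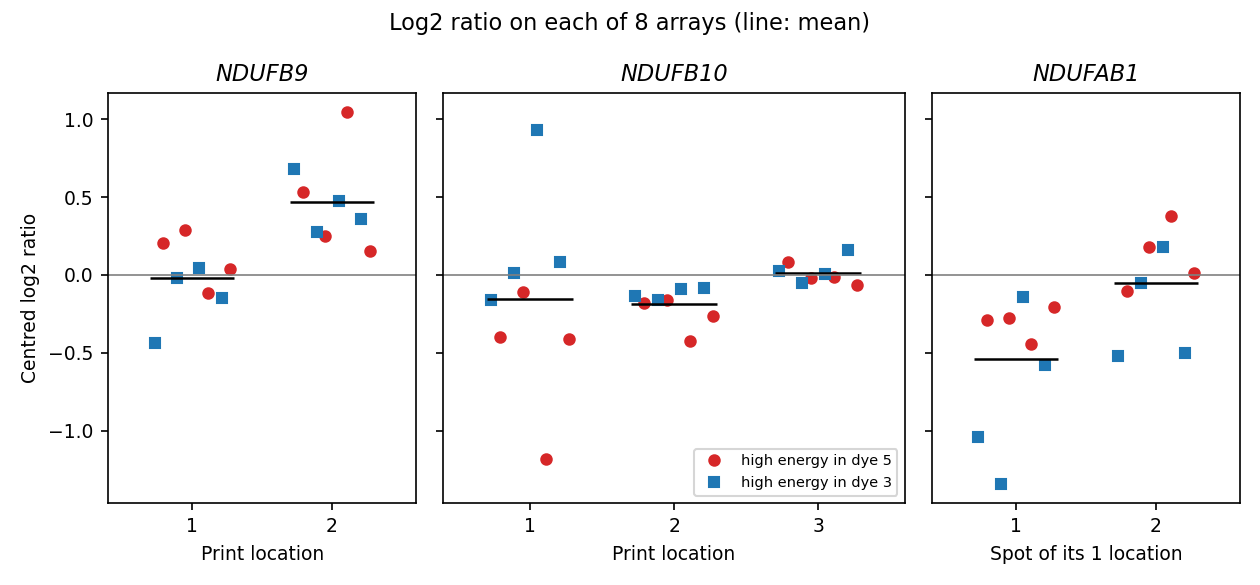
Log2 ratio on each of the 8 arrays at the print locations of NDUFB9 and NDUFB10 and at the neighbouring spots of NDUFAB1, with the mean as a black line. NDUFB9 is above 0 on every array at location 2 and scattered around 0 at location 1; spot 1 of NDUFAB1 is below 0 on every array and spot 2 on 4 of 8.

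Read as a dye effect, the same values gave no call either. Of the 29 subunits, 0 passed the test of the turned value, beside 0 of 5025 features (0%; smallest limma adjusted p = 0.998), and 0 of 29 had an unadjusted p under 0.05, beside 133 features (2.65%). The median size of the turned value, 0.064, equalled that of the diet ratio, and in 12 of 29 subunits the turned value was the larger. Its sign was the same in all 4 couples for 2 of 28 subunits (7.14%), beside 14.7% of features, and 0 of 28 had the orientations wholly on opposite sides of 0, beside 0.687%. The largest turned values were those of NDUFB1 (0.33 ± 0.15), NDUFA7 (-0.27 ± 0.14) and NDUFAB1 (0.22 ± 0.11). For NDUFB1 the swapped arrays of couple 4 gave 0.91 and -0.52, the former the highest of the 240 array values of the 31 subunits. That 0.91 is the mean of neighbouring spots at 2.355 and -0.53. Fitted alone, the spots of NDUFB1 had turned values of 0.54 and 0.23, and those of NDUFA7 -0.12 and -0.41.

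Few of the genes that build complex I were on the array. Of 20 assembly factors listed, 4 were measured, and 0 passed the limma test or had an unadjusted p under 0.05. NDUFAF1, an early factor of the membrane arm, had a ratio of 0.073 ± 0.15 (n = 3), TIMMDC1, a membrane arm factor, -0.055 ± 0.14 (n = 3), NDUFAF3, which acts on the ubiquinone module, 0.017 ± 0.085 (n = 4), and DMAC2, a factor of the distal membrane arm, -0.17 ± 0.11 (n = 3). Their turned values were 0.040, -0.014, -0.045 and 0.16 in the same order. Their ratios lay on both sides of 0, as those of the subunits did.

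The other respiratory complexes were set beside complex I from lists of their subunits and a few genes tied to them. Complex II had 2 tested genes: the subunit SDHA, at -0.033, and the assembly factor SDHAF2, at -0.19. The list of complex III, which counts the electron carrier CYCS, had 8 genes, with 5 above 0 and 3 below (median 0.026). Complex IV had 11, with 3 above and 8 below (-0.052), and the ATP synthase, with its inhibitor ATP5IF1, 15, with 5 above and 10 below (-0.035). The complex IV list does not count COXFA4 (NDUFA4), whose ratio, given at the start, lay below 0. Turned, 2 of 2 genes lay above 0 for complex II, 3 of 8 for complex III (median -0.020), 5 of 11 for complex IV (-0.014) and 9 of 15 for the ATP synthase (0.013). The median of complex I, -0.026, lay between those of complexes III and IV, and 0 genes of any complex passed the limma test or had an unadjusted p under 0.05. Of regulators of mitochondrial genes, ESRRA, a nuclear receptor of energy metabolism, had a ratio of 0.030 (turned 0.0052), and POLRMT, the mitochondrial RNA polymerase, 0.10 (turned 0.11).

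**Figure D4:**
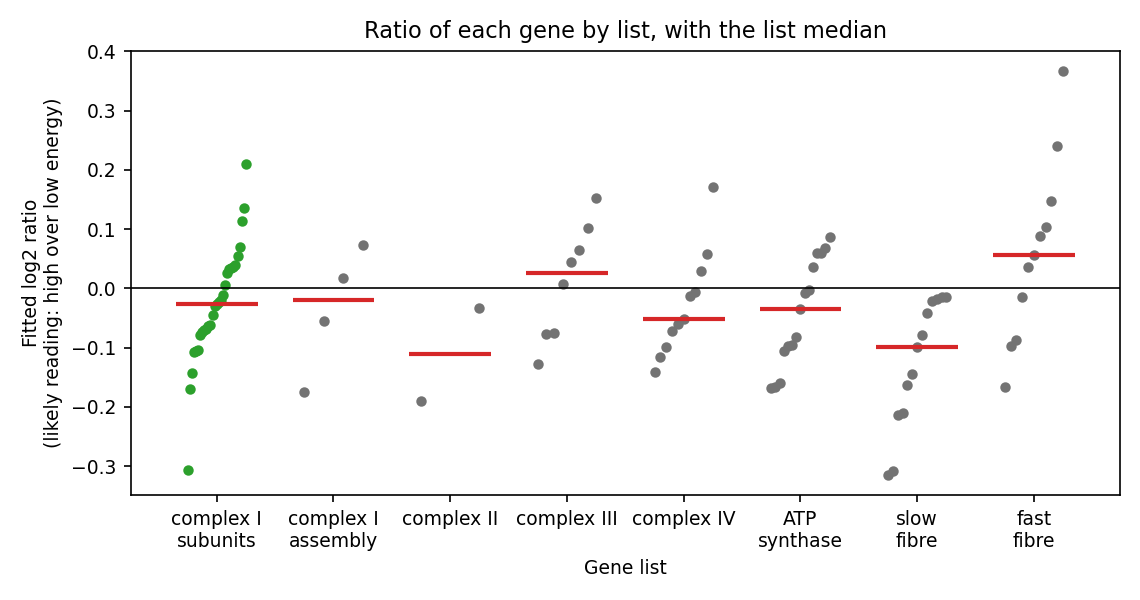
Log2 ratios of the tested genes of complex I, the other respiratory complexes and the marker lists, 1 point a gene, with the median of each list. Complex I has its median at -0.026, and the slow fibre list, with all 13 genes below 0, at -0.098.

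Markers of fibre type and of other cells of muscle tissue were read beside these values, and their part in them was not tested. All 13 tested slow fibre genes lay below 0 (median -0.098, range -0.32 to -0.014). Of the fast fibre genes 7 of 11 lay above 0 (median 0.057), beside 46.4% of all features above 0. Turned, 8 of 13 slow fibre genes (median 0.0016) and 5 of 11 fast fibre genes (-0.0035) lay above 0, so the one-sided slow fibre count holds under the likely direction and not under the other. By limma, 0 genes of either list were called after adjustment. At an unadjusted limma p under 0.05 were 3 of 13 slow fibre genes and 1 of 11 fast fibre genes. The same held for 190 of 5025 features (3.78%) and for 61 of the 2556 that are genes with a symbol. Vessel markers had 4 of 4 genes above 0 (median 0.16), adipocyte markers 3 of 5 (0.039), fibroblast markers 4 of 6 (0.0083), immune markers 2 of 5 (-0.018) and blood markers 2 of 4 (-0.0018); turned, 2 of 4, 1 of 5, 3 of 6, 2 of 5 and 4 of 4 lay above 0 in the same order. Slow fibres are in general rich in mitochondria. The slow fibre list had a median below 0 in every couple, from -0.19 in couple 4 to -0.052 in couple 3. The complex I median was above 0 in couple 1 (0.027) and below 0 in couples 2, 3 and 4, lowest in couple 4 (-0.053). A link between these lists was not tested.

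Across the whole series, arrays had values for 77.6% to 94.4% of spots, log2 ratios scattered with an SD between 0.341 and 0.724, and medians before centring lay between -0.0071 and 0.0115. The 31 subunits had 240 of 248 possible array values, of which 20 exceeded 0.5 in size and 2 exceeded 1. Arrays carry no read depth. The number of couples and the couple-to-couple spread, as moderated by limma, set the standard error of every ratio.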

How the data were processed

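Pig skeletal muscle RNA was compared on 8 arrays with 2 colours. The deposited values are log2 ratios. Their base was inferred: per array, 5.95% to 19.2% of them were exact logarithms of simple fractions in base 2, against at most 2.25% in base e or base 10. Per the series' design text a ScanArray LITE instrument scanned the slides and low energy samples were the reference; the sources used here do not give the background correction, filters or normalization. Arrays were centred on their medians and spots of a symbol averaged. The platform annotation gives 1 symbol for 6610 of 9984 spots, several for 106 and none for 3268. Spots with no single symbol were kept as features of their own, and 2 spots annotated to RPS28 and NDUFA7 together were left out of NDUFA7. All 31 member symbols occur in the pig RefSeq table, but probe sequences were not used here.

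A feature was tested when both dye orientations were measured in at least 3 couples. The mean over couples was tested against 0, two-sided, with lmFit and eBayes of limma 3.58.1 in R 4.3.3; couples sharing a high energy sample were blocked at a correlation of 0.5, and p-values were adjusted by Benjamini-Hochberg over all 5025 features; couples 1 and 3 thus weigh 0.2 each and couples 2 and 4 0.3 each. Intervals are 95%. The script was tested on simulated data. Described array by array were members with 1 sign in all couples, the 3 smallest p-values in each direction and the largest ratio; assembly factors were all named. The members, lists and tests were chosen with earlier results of these data known. Alternatives changed centring, scaling, spot averaging, filters, dye orientation, the shared sample and the couples included.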

Additional observations from a re-analysis of the deposited data

Results flagged for a closer look

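In 4 of the 28 subunits measured in all 4 couples (14.3%), 1 couple lay apart from the other 3 by Dixon's test at its 95% critical value, beside 269 of 3640 features (7.39%) by the same test; chance alone gives about 5% of groups. Couple 4 was the lowest for NDUFA2, at -0.27, and for NDUFB4, at -0.35. Couple 3 was the lowest for NDUFA12, at -0.15, and for NDUFA13, at -0.50. The cause was not tested.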

How the results depend on the processing

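No alternative called a feature or a complex I subunit, in 18 alternatives for the diet ratio and 15 for the dye difference; the smallest adjusted limma p over them was 0.136 and 0.868. The number of features with an unadjusted limma p under 0.05, 190 for diet and 133 for dye, was 310 and 260 with couples taken as independent, 287 and 262 with the correlation of couples 1 and 3 seen across features (0.075 for diet), an alternative chosen after seeing the data, and 330 and 238 when all 8 arrays were fitted with the couple as replicate block. It was 99 for diet with high energy in dye 5 only, and 208 for dye with each spot tested alone, also chosen after seeing the data. Leaving out 1 couple gave 107 (without couple 2) to 284 (without couple 3) for diet, with 122 without couple 4, and 75 (without couple 2) to 223 (without couple 1) for dye, with 207 without couple 3. The fit of all 8 arrays used its estimated correlation within a couple, 0.0039, so swapped arrays counted almost as separate replicates. The smallest adjusted limma p for diet, 0.136, came from that fit. The fits with independent couples and with 0.075 put a lower value in place of the set correlation of 0.5. The cause of the shifts in number was not tested.

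The share of subunits above 0, 37.9%, was 62.1% with high energy in dye 3 only, and their median, -0.026, was 0.016 there; the other 17 alternatives gave 34.5% to 55.2% and -0.054 to 0.0012, the upper value of each without couple 4. Single subunits changed sign in 12 of 29 when the sign of the dye 3 arrays was turned, in 9 of 29 with dye 3 only and in 9 of 29 without couple 4. The shared-sample correlation could not be estimated with duplicateCorrelation, which gave no value for 4 couple means, so there is no fit with it. With 4 couples, the ratios of 22 of 29 subunits were smaller in size than their own limma standard error, so small diet differences could not be resolved.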
